A study of Mus musculus with 2 samples.

Results

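Izumo1r, Podnl1, Atp8a2, Ephx1, Lpcat4, Pacsin1 and Tbc1d4 were followed as 1 group of 7 genes, of 32285 features counted, through single-cell RNA counts of mouse thymus. They were picked by name from earlier results of these data, in which Izumo1r and Podnl1 led a cluster of control T cells with Zbtb16 among its leading genes. Their presence together and with Zbtb16 in control cells, and their level in the mutant, are therefore given as description. With 1 library per genotype, each from 2 mice, no test was possible and no p is given. YFP+ cells had been sorted from thymus and the sample names call them iNKT1 cells. The cKO library came from Tbx21Cre Ets1F/F Rosa26-YFP+ mice and the control library from Tbx21Cre Rosa26-YFP+ mice, whose age is not given in the sources used here. Both genotypes carry a Cre recombinase driven by Tbx21, which encodes T-bet, and a reporter that Cre switches on. YFP therefore marks cells that have expressed Tbx21 or descend from such cells. Ets1, the gene of an ETS factor, is removed in the cKO mice only where Cre has acted.

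Invariant natural killer T (iNKT) cells are T cells with a semi-invariant receptor that see lipids presented by CD1d. In the thymus they are commonly sorted into an iNKT1 type that depends on T-bet and carries NK1.1, the product of Klrb1c, and an iNKT2 type that makes interleukin 4 (Il4) and holds much of the transcription factor PLZF, the product of Zbtb16. The 7 genes do not form a known pathway. Izumo1r encodes folate receptor 4, also called JUNO, which on the mouse egg binds the sperm protein IZUMO1 and on mouse CD4 T cells marks regulatory and anergic cells. Podnl1 encodes a podocan-like leucine-rich repeat protein of the extracellular matrix. Atp8a2 encodes a flippase of aminophospholipids, Lpcat4 an acyltransferase that remodels lysophospholipids, and Ephx1 the microsomal epoxide hydrolase. Pacsin1 encodes an F-BAR protein that bends membranes in endocytosis, and Tbc1d4 a GTPase-activating protein for Rab proteins that controls the traffic of glucose transporters.

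On GRCm38, Izumo1r (ENSMUSG00000031933) lies on chromosome 9 from 14885814 to 14903949 on the minus strand, Podnl1 (ENSMUSG00000012889) on chromosome 8 from 84125989 to 84132527 on the plus strand, and Atp8a2 (ENSMUSG00000021983) on chromosome 14 from 59638540 to 60197179 on the minus strand. Ephx1 (ENSMUSG00000038776) lies on chromosome 1 from 180976210 to 181020904 on the minus strand and Lpcat4 (ENSMUSG00000027134) on chromosome 2 from 112239468 to 112247111 on the plus strand. Pacsin1 (ENSMUSG00000040276) lies on chromosome 17 from 27655509 to 27711482 on the plus strand, and Tbc1d4 (ENSMUSG00000033083) on chromosome 14 from 101442360 to 101609191 on the minus strand. Atp8a2 overlaps 6 other annotated genes, among them Nupl1 on the same strand, and Ephx1 and Tbc1d4 each overlap 1 gene model on the same strand, so a share of their counts is uncertain. The members thus sit on 6 chromosomes.

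Promoter windows of 300 bases, from 250 before to 50 after the start site in RefSeq on GRCm38.p6, were found for 5 of the 7 members. Letters that ETS, T-box and RUNX factors are known to bind were searched on both strands. AGGAAG (ETS) was in 1 of the 5 windows, Ephx1, and in 35.4% of the 32851 windows searched, and the longer CCGGAAG was in 0 of 5, against 8.86% of all windows. GGTGTG (T-box, 19% of all windows) and TGTGGT (RUNX, 16.8% of all windows) were both in the windows of Izumo1r and Pacsin1, and in Pacsin1 they overlap. The windows of Lpcat4 and Tbc1d4 held none of these letters. Printed here are the 3 windows with a match, from 2 members with a large and 1 with a small difference between the libraries. Capitals mark the matched letters, read on either strand. Izumo1r is at chr9:14903718-14904017 on the minus strand, Pacsin1 at chr17:27684989-27685288 on the plus strand and Ephx1 at chr1:181017520-181017819 on the minus strand. The windows of Pacsin1 and Ephx1 lie inside the longer gene spans given above.
Izumo1r: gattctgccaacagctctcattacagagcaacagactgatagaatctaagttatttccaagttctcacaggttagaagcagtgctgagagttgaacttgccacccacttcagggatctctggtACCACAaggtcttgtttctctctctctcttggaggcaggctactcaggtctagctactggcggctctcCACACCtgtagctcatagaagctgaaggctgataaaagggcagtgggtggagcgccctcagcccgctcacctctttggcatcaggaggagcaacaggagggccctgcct
Pacsin1: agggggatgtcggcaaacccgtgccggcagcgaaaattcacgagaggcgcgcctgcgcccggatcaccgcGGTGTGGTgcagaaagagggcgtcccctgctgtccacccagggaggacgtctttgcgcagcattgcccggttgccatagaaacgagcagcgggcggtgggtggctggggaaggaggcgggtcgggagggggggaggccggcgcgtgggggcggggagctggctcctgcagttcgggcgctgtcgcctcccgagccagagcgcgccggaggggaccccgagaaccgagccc
Ephx1: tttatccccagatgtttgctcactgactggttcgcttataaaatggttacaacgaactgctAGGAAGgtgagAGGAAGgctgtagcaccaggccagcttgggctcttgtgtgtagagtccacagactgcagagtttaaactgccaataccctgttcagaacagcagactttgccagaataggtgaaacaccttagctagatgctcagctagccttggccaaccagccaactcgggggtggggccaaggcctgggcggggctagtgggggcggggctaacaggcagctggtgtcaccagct
A match is a string of letters, not evidence that a factor binds there.

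The libraries were unlike in ways that touch every comparison. The cKO library held 11206 barcodes and 39979742 UMIs and the control library 10102 barcodes and 35210431 UMIs. Barcodes under 500 genes or over 10% mitochondrial UMIs were dropped, which left 5903 cKO cells with a median of 5533 UMIs and 7395 control cells with a median of 2666 UMIs. The limit on mitochondrial UMIs was exceeded by 28.6% of cKO and 6.76% of control barcodes. In the cKO library 1836 kept cells drew over 1% of their UMIs from 15 gut epithelium genes, against 1 cell in the control library. Where these barcodes came from is not known, and whether the same source also added T cells to the cKO library, which would touch every comparison between the libraries, was not tested. They were set aside, and 29 barcodes were in both libraries. T cells were those with at least 2 UMIs of Cd3d, Cd3e and Cd3g, 3391 in the cKO and 6807 in the control library, with medians of 7048 and 2890 UMIs. Among these T cells, 53.5% in the cKO and 93.7% in the control library had no UMI of Cd79a, Lyz2 or the gut genes, and the summed level of the gut genes was 114 against 11.2 CPM. The targeted gene was lower: Ets1 stood at 174 CPM (169 to 179) in cKO T cells and 501 CPM in control T cells, 2.89-fold lower (2.79 to 2.99), and 62.2% of cKO T cells still held an Ets1 UMI. CPM is the summed UMIs of a gene over all UMIs of the same cells, times 1000000. All intervals are exact 95% intervals and cover counting error only, not differences between mice.

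In T cells all 7 genes had a lower level in the cKO library, and 6 met a size rule of at least 1.5-fold, 10 CPM in the higher library and an interval of the ratio that excludes 1. Of 7908 features tested, 5.26% were lower and 14.3% higher by the same rule, and the median log2 ratio was -1.48 for the 7 members and 0.19 for all features tested. The steepest differences were in Podnl1, at 7.0 CPM (6.03 to 8.08) in cKO and 58.9 CPM (56.3 to 61.7) in control T cells, 8.40-fold lower (7.24 to 9.84), and in Atp8a2, at 8.92 CPM (7.82 to 10.1) in cKO and 52.0 CPM in control T cells, 5.81-fold lower (5.08 to 6.70). Izumo1r stood at 42.0 CPM (39.6 to 44.5) in cKO and 151 CPM (146 to 155) in control T cells, 3.59-fold lower (3.36 to 3.84). To compare shares of cells at equal depth, every cell was thinned to 1500 UMIs, leaving out 65 cKO and 1834 control T cells. An Izumo1r UMI was then in 4.33% (3.66 to 5.08) of cKO and 18.2% (17.1 to 19.3) of control T cells (unthinned, 11.3% of cKO and 32.0% of control), and a Podnl1 UMI in 1.08% of cKO and 8.77% of control T cells (unthinned, 4.19% of cKO and 19.8% of control). Among B cells at that depth, Izumo1r was in 0 of 153 cKO cells, which allows up to 1.96%, and in 3.03% (0.0767 to 15.8) of 33 control cells. T cells with Izumo1r held 1.28 Izumo1r UMIs on average in both libraries after thinning. Before thinning, the T cell with the most held 28 UMIs in the cKO and 21 in the control library.

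The other 4 members differed less. Pacsin1 had 18.6 CPM in cKO and 51.9 CPM in control T cells, 2.79-fold lower (2.52 to 3.10). Lpcat4 had 36.7 CPM in cKO and 63.8 CPM in control T cells, 1.74-fold lower (1.61 to 1.88). Tbc1d4 had 39.5 CPM in cKO and 61.4 CPM in control T cells, 1.55-fold lower (1.44 to 1.68), and this met the size rule by little: with cells thinned to 1500 UMIs its log2 ratio was -0.29 in place of -0.64 and no longer met it. Ephx1 had 24.2 CPM in cKO and 34.7 CPM in control T cells, 1.43-fold lower (1.30 to 1.58), short of the rule, but met it after thinning with a log2 ratio of -0.74. The 7 genes thus ranged from 8.40-fold to 1.43-fold lower in the same cells.

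**Figure D1:**
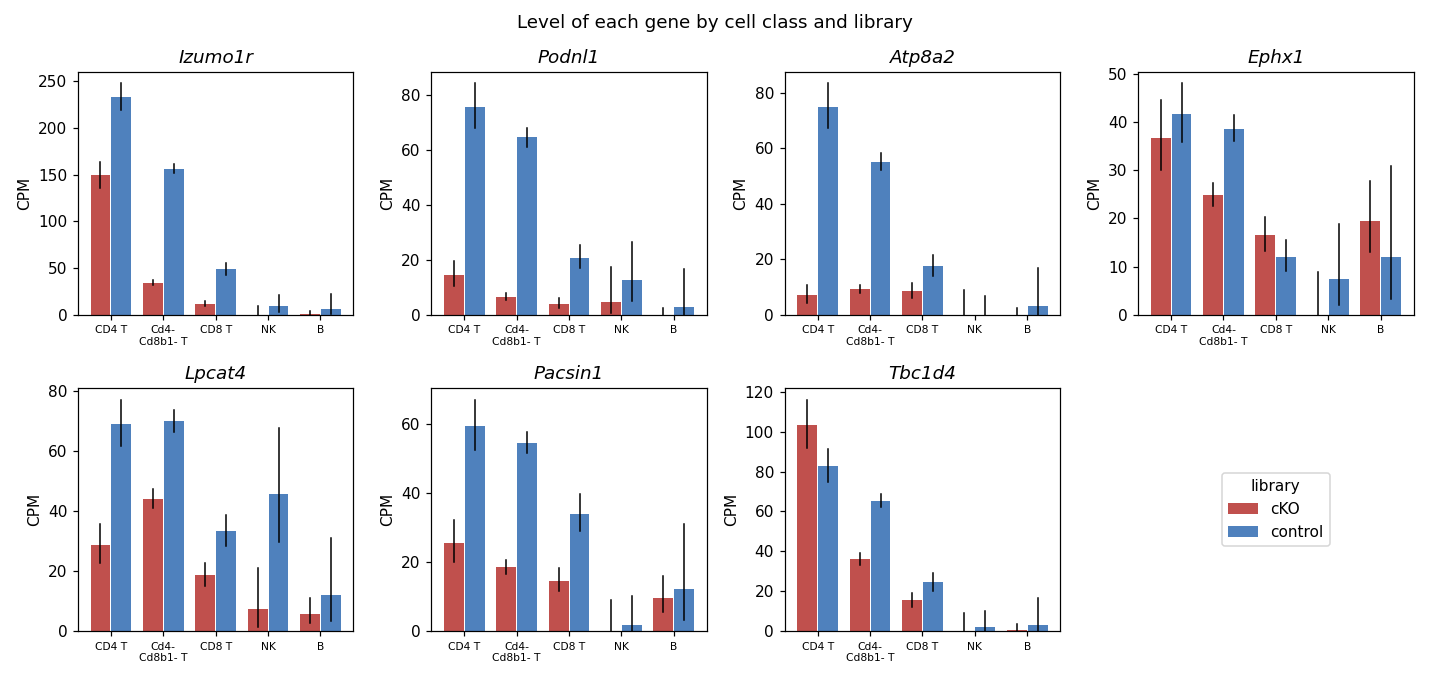
CPM of each gene (y axis, from 0) in CD4 T cells, T cells with neither Cd4 nor Cd8b1, CD8 T cells, NK cells and B cells, with the cKO library left of the control library; lines are exact Poisson 95% intervals. Izumo1r, Podnl1 and Atp8a2 were at most 12.8 CPM in NK and B cells of either library, and Tbc1d4 in CD4 T cells stood at 104 CPM in cKO and 82.7 CPM in control cells.

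Among T cells the members were read in 338 cKO and 662 control cells with Cd4 and no Cd8b1, 524 cKO and 825 control cells with Cd8b1 and no Cd4, and 2440 cKO and 5264 control cells with neither. In cells with neither, which made up most T cells, all 7 members met the size rule as lower, against 6.12% of features tested lower and 14.6% higher. There Podnl1 was at 6.61 CPM in cKO and 64.5 CPM in control cells, 9.71-fold lower (8.07 to 11.9), Izumo1r at 34.2 CPM in cKO and 157 CPM in control cells, 4.57-fold lower (4.19 to 4.99), and Ephx1 at 24.9 CPM in cKO and 38.6 CPM in control cells, 1.55-fold lower (1.38 to 1.75). In all T cells without Cd8b1 6 of 7 members were lower, against 5.55% of features lower and 13.7% higher. In the 89 cKO and 56 control T cells with both Cd4 and Cd8b1, 4 of 7 were lower, Izumo1r, Podnl1, Atp8a2 and Lpcat4, against 3.57% of features lower and 8.35% higher. In CD8 T cells 6 of 7 members were lower, against 7.37% of features lower and 24.1% higher. The exception was Ephx1, at 16.5 CPM (13.2 to 20.3) in cKO and 12.0 CPM (9.08 to 15.5) in control CD8 T cells. Izumo1r was 4.09-fold lower (3.10 to 5.51) in cKO CD8 T cells. Atp8a2 was 2.04-fold lower (1.42 to 3.02) there, but when only cells without a UMI of Cd79a, Lyz2 or the gut genes were kept its log2 ratio was -0.60 in place of -1.03 and it no longer met the rule. The Tbc1d4 call in CD8 T cells was lost in cells of at least 1000 genes, in cells of at least 3000 UMIs and after thinning, with log2 ratios of -0.55, -0.51 and -0.46 in place of -0.67.

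In CD4 T cells the levels of Izumo1r and Tbc1d4 lay closer together in the libraries, or the other way round, than in the T cells above, a contrast that was not tested. Of the 7 members 5 met the rule as lower in the cKO library, against 6.79% of features lower and 13.3% higher, with Atp8a2 at 7.07 CPM (4.32 to 10.9) in cKO and 74.9 CPM in control cells, 10.4-fold lower (6.76 to 17.6), and Podnl1 at 14.5 CPM in cKO and 75.6 CPM in control cells, 5.16-fold lower (3.77 to 7.41). Izumo1r stood at 149 CPM (135 to 164) in cKO and 233 CPM (219 to 248) in control CD4 T cells, 1.56-fold lower (1.39 to 1.75). That call was lost with at most 5% mitochondrial UMIs, after thinning, with every cell weighted equally and in cells free of Cd79a, Lyz2 and gut UMIs, where the log2 ratios were -0.48, -0.36, -0.55 and -0.28. Tbc1d4 was above control, at 104 CPM (92.0 to 116) in cKO and 82.7 CPM (74.5 to 91.6) in control CD4 T cells, a ratio of 1.25 (1.07 to 1.46) that did not meet the rule. After thinning the ratio was 1.55 and met it. Ephx1 had 36.7 CPM in cKO and 41.6 CPM in control CD4 T cells.

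The CD4 T cells of the libraries differed in Foxp3 detection, and the part of this in the levels above was not tested. A Foxp3 UMI, the mark of regulatory T cells, was in 40 of 338 cKO and 6 of 662 control CD4 T cells. Of the 10 regulatory and anergic CD4 T cell genes listed, 9 were higher in cKO CD4 T cells and 0 lower, against 13.3% of features higher, with Foxp3 itself at 56.9 CPM in cKO and 2.22 CPM in control cells and Tnfrsf4, a costimulatory receptor gene, at 242 and 25.1 CPM in the same order. In the 40 cKO cells with Foxp3, Izumo1r stood at 205 CPM (162 to 257) and Tbc1d4 at 124 CPM (91.0 to 166), while the 6 control cells gave 29 Izumo1r UMIs, 19 of them in 1 cell, and 1 Tbc1d4 UMI. By the rule 2 members were lower and 1 higher in these few cells, against 3.31% of features lower and 1.67% higher. In CD4 T cells with neither Foxp3 nor Zbtb16, 249 in the cKO and 498 in the control library, Tbc1d4 had 112 CPM (97.2 to 128) in cKO and 74.0 CPM (64.5 to 84.4) in control cells, a ratio of 1.51 (1.24 to 1.84), and Izumo1r had 143 CPM in cKO and 193 CPM in control cells, 1.35-fold lower (1.17 to 1.57), which was short of the rule. There 4 of 7 members were lower and 1 higher, against 7.22% of features lower and 14.5% higher. In CD4 T cells with Zbtb16 and no Foxp3, 49 in the cKO and 158 in the control library, both were lower: Izumo1r had 133 CPM in cKO and 301 CPM in control cells, 2.26-fold lower (1.79 to 2.91), and Tbc1d4 had 65.6 CPM in cKO and 103 CPM in control cells, 1.55-fold lower (1.10 to 2.27). Of the 7 members 5 were lower there, against 5.90% of features lower and 8.10% higher. The order of the libraries for Tbc1d4 therefore differed between these sets of CD4 T cells, and Podnl1 and Atp8a2 were lower in the cKO library in both.

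The NK gate, Ncr1 without CD3, held 46 cKO and 105 control cells. Lpcat4 was the 1 member of 7 that met the rule, against 8.18% of features lower and 5.78% higher, with 3 UMIs or 7.24 CPM (1.49 to 21.2) in cKO and 25 UMIs or 45.8 CPM (29.6 to 67.6) in control NK cells. Izumo1r had 0 UMIs in cKO NK cells, which allows up to 7.24 CPM, and 5 UMIs or 9.15 CPM in control NK cells. Atp8a2 had 0 UMIs in both, and only Lpcat4 and Podnl1 reached 10 CPM. In B cells, 177 in the cKO and 45 in the control library, 0 of 7 members met the rule, against 5.59% of features lower and 9.28% higher, and Izumo1r had 1 UMI in cKO and 2 UMIs in control cells. Ephx1, Pacsin1 and Lpcat4 were detected in B cells of both libraries, Ephx1 at 19.4 CPM (13.1 to 27.7) in cKO and 12.0 CPM (3.28 to 30.8) in control B cells. In the 1836 gut-rich cKO cells Atp8a2 stood at 8.96 CPM (6.24 to 12.5), beside 8.92 CPM in cKO T cells, while Izumo1r and Podnl1 stood at 2.05 and 1.02 CPM there, below their levels in cKO T cells. The part of free RNA in the residual Atp8a2 of cKO T cells was not tested.

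Across classes the control library gave 1 order for Izumo1r: CD4 T cells at 233 CPM, then T cells with neither coreceptor at 157 CPM and with both at 148 CPM, whose intervals overlap, then CD8 T cells at 49.1 CPM, and NK and B cells at 9.15 and 6.02 CPM, whose intervals overlap too. The cKO library kept CD4 T cells first, at 149 CPM, with 34.2 CPM in cells with neither coreceptor, 32.5 CPM in cells with both and 11.9 CPM in CD8 T cells. Podnl1, Ephx1 and Pacsin1 in control cells did not separate CD4 T cells from cells with neither coreceptor beyond their intervals. Lpcat4 had its highest level in cells with neither coreceptor in both libraries, 44.1 CPM in cKO and 69.9 CPM in control cells, although in control its interval overlaps that of CD4 T cells. Atp8a2 in the cKO library did not separate the T cell classes beyond their intervals, at 7.07 to 11.4 CPM, while cKO B cells had 0 UMIs, with an interval up to 2.38 CPM that lies below those of the T cell classes. It stood at 74.9 CPM in CD4 T cells, 55.2 CPM in cells with neither coreceptor and 17.5 CPM in CD8 T cells of the control library.

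A Trav11 UMI, the segment of the iNKT receptor, was found in 138 cKO and 163 control T cells without Cd8b1. Among these, 5 of 7 members were lower in the cKO library, against 6.80% of features lower and 13.3% higher. Podnl1 had 5 UMIs or 4.63 CPM in cKO and 97 UMIs or 84.7 CPM in control cells, 16.7-fold lower (7.58 to 57.6). Atp8a2 had 3.70 CPM in cKO and 59.4 CPM in control cells, 14.4-fold lower (5.99 to 60.6), and Izumo1r 53.7 CPM in cKO and 149 CPM in control cells, 2.77-fold lower (2.05 to 3.81). Of the 58 cKO Izumo1r UMIs, 28 were in 1 cell, which the interval does not allow for. An Izumo1r UMI was in 10.1% of these cKO and 45.4% of these control cells, unthinned. Tbc1d4 had 35.2 CPM in cKO and 83.8 CPM in control cells, 2.37-fold lower (1.62 to 3.57). Ephx1, at 25.9 CPM in cKO and 25.3 CPM in control cells, and Lpcat4, at 49.99 CPM in cKO and 62.9 CPM in control cells, did not meet the rule. The low levels in the cKO library thus held among cells that carried this receptor segment, for 5 of the 7 genes. Trav11 has a near-identical copy, Trav11d, so the gate itself is uncertain.

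Cells were next read by depth, since the libraries differed in it. In T cells without Cd8b1, control Izumo1r was at 149 CPM (136 to 164) in 2386 cells under 2000 UMIs, 166 CPM in cells of 2000 up to 4000 UMIs, 170 CPM in cells of 4000 up to 8000 UMIs and 177 CPM (169 to 186) in 894 cells of 8000 UMIs or more. In cKO cells it was 46.0 CPM (19.9 to 90.7) in 119 cells under 2000 UMIs, then 27.9 CPM, 32.3 CPM and, in 907 cells of 8000 UMIs or more, 68.0 CPM (63.1 to 73.3). The intervals of the libraries did not overlap in any depth class for Izumo1r, Podnl1, Atp8a2 and Pacsin1. They overlapped under 2000 UMIs for Lpcat4, Ephx1 and Tbc1d4, and from 2000 up to 4000 UMIs for Ephx1 and Tbc1d4. The share of all features without overlap in these depth classes is not given. Tbc1d4 under 2000 UMIs had 51.8 CPM (23.7 to 98.3) in cKO and 46.3 CPM (39.1 to 54.5) in control cells, and from 4000 up to 8000 UMIs 39.8 CPM in cKO and 81.1 CPM in control cells. Barcodes removed by the filters had Izumo1r at 44.5 CPM (26.4 to 70.3) in the cKO and 176 CPM (155 to 199) in the control library.

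**Figure D2:**
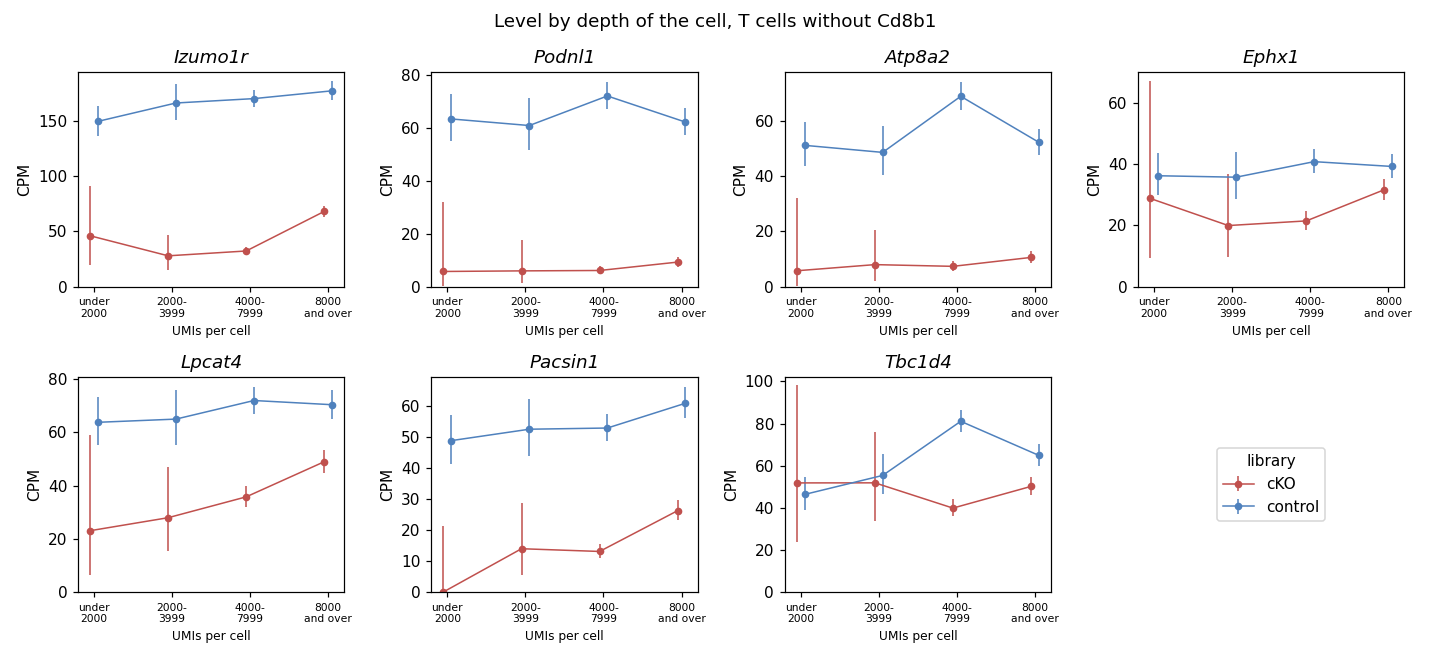
CPM (y axis, from 0) of each gene in T cells without Cd8b1 by UMIs per cell (x axis, 4 classes) in the cKO and control libraries; bars are exact Poisson 95% intervals. Control Izumo1r stays between 149 and 177 CPM, and cKO Izumo1r between 27.9 and 68.0 CPM.

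Whether the members sit in iNKT2-like or iNKT1-like cells was read by co-detection with Zbtb16, Il4, Tbx21 and Klrb1c in T cells without Cd8b1 thinned to 1500 UMIs, 2718 in the cKO and 4244 in the control library, leaving out 60 and 1682 shallower cells. Zbtb16 was found in 6.25% of cKO and 6.10% of control cells, Il4 in 9.09% of cKO and 6.08% of control cells, Tbx21 in 18.4% of cKO and 11.2% of control cells, and Klrb1c in 3.16% of cKO and 21.2% of control cells. In the control library the members were found with and without each partner. Izumo1r stood at 237 CPM in Zbtb16 positive and 167 CPM in Zbtb16 negative control cells, a ratio of 1.43 (1.13 to 1.76), and at 167 CPM in Klrb1c positive and 172 CPM in Klrb1c negative control cells, a ratio of 0.968 (0.831 to 1.12). Podnl1 stood at 72.6 CPM in Klrb1c positive and 70.0 CPM in Klrb1c negative control cells, and Atp8a2 at 59.3 and 62.0 CPM in the same order. With Tbx21 the control ratios ran from 0.862 to 1.33 and with Klrb1c from 0.872 to 1.17, and 0 of 7 members met the rule as higher or lower with either, against 1.98% of features higher and 1.36% lower with Tbx21 and 1.10% higher and 1.75% lower with Klrb1c.

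With Zbtb16 the ratio was above 1 for 7 of 7 members in cKO and 6 of 7 in control cells, with no share of all features set beside it. The members came from a control cluster with Zbtb16 among its leading genes, so the control ratios are description only. In control cells 1 of 7 members, Ephx1, met the rule as higher with Zbtb16, against 2.14% of features higher and 1.72% lower, at 84.9 CPM in positive and 36.1 CPM in negative cells, a ratio of 2.38 (1.58 to 3.40). In cKO cells 2 of 7 did, against 2.63% of features higher and 1.76% lower: Ephx1, at 54.9 CPM in positive and 19.6 CPM in negative cells, a ratio of 2.88 (1.46 to 4.99), and Pacsin1, at 43.1 CPM in positive and 14.7 CPM in negative cells, a ratio of 3.05 (1.39 to 5.68). Thinning discards most UMIs, and the ratio of Ephx1 was 1.43 (0.850 to 2.19) in control and 1.63 (0.647 to 3.18) in cKO cells with another random seed, so neither call held there. With that seed Izumo1r met the rule in both libraries, with ratios of 3.0 (1.90 to 4.44) in cKO and 1.59 (1.28 to 1.94) in control cells. Without thinning, 6 of 7 members met the rule in cKO and 3 of 7 in control cells, with Izumo1r at 82.9 CPM in Zbtb16 positive and 36.7 CPM in negative cKO cells, a ratio of 2.26 (1.99 to 2.56), and at 234 CPM in positive and 149 CPM in negative control cells, a ratio of 1.57 (1.47 to 1.67). The shares of all features meeting the rule with that seed or without thinning are not given. Cells in which Zbtb16 is seen without thinning are deeper cells, and the part of depth in these ratios was not tested.

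Calls with Il4 were few and changed with the thinning. In control cells 2 of 7 members were higher with Il4, against 2.28% of features higher and 1.67% lower: Atp8a2, at 109 CPM in positive and 58.4 CPM in negative cells, and Lpcat4, at 114 CPM in positive and 67.6 CPM in negative cells, and without thinning 0 of 7 were. In cKO cells 1 of 7 was higher, against 2.09% of features, and 1 lower, against 2.48%: Ephx1 had 40.5 CPM in Il4 positive and 19.96 CPM in negative cells, and Tbc1d4 29.7 CPM in positive and 58.0 CPM in negative cells. Both of these turned direction with another random seed, with log2 ratios of -0.16 for Ephx1 and 0.20 for Tbc1d4.

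Izumo1r and Tbc1d4 in cKO cells were lower with the iNKT1 partners. With Tbx21, 2 of 7 members were lower in positive cKO cells, against 2.00% of features, and 0 higher, against 2.14%: Izumo1r had 26.7 CPM in Tbx21 positive and 46.9 CPM in negative cells, a ratio of 0.583 (0.339 to 0.911), and Tbc1d4 36.1 CPM in positive and 59.8 CPM in negative cells, a ratio of 0.613 (0.388 to 0.905). The Tbc1d4 call was lost at 1000 and at 2500 UMIs per cell and without thinning, where the ratios were 0.586, 0.75 and 0.703. With Klrb1c, Izumo1r had 0 UMIs in 86 positive cKO cells, which allows up to 23.3 CPM, and 44.6 CPM in negative cells. Against that floor of 3 counts it was at least 1.92-fold lower, and the wider exact interval of the ratio reached 0.648. With another random seed it had 1 UMI in the positive cells, a ratio of 0.241 (0.00405 to 0.907), and at 1000 UMIs per cell, again with 0 UMIs, the interval reached 1.61 and the call was lost. Without thinning it had 35 UMIs or 13.1 CPM in Klrb1c positive and 55.4 CPM in Klrb1c negative cKO cells, a ratio of 0.239 (0.163 to 0.330), against 170 CPM in both Klrb1c positive and Klrb1c negative control cells, with an interval of the ratio from 0.942 to 1.06. In the thinned cells 2 of 7 members, Izumo1r and Tbc1d4, met the rule as lower with Klrb1c in cKO cells, against 1.22% of features, and 0 as higher, against 2.36%. The Tbc1d4 call rested on 2 UMIs in positive cells and turned direction with another random seed.

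**Figure D3:**
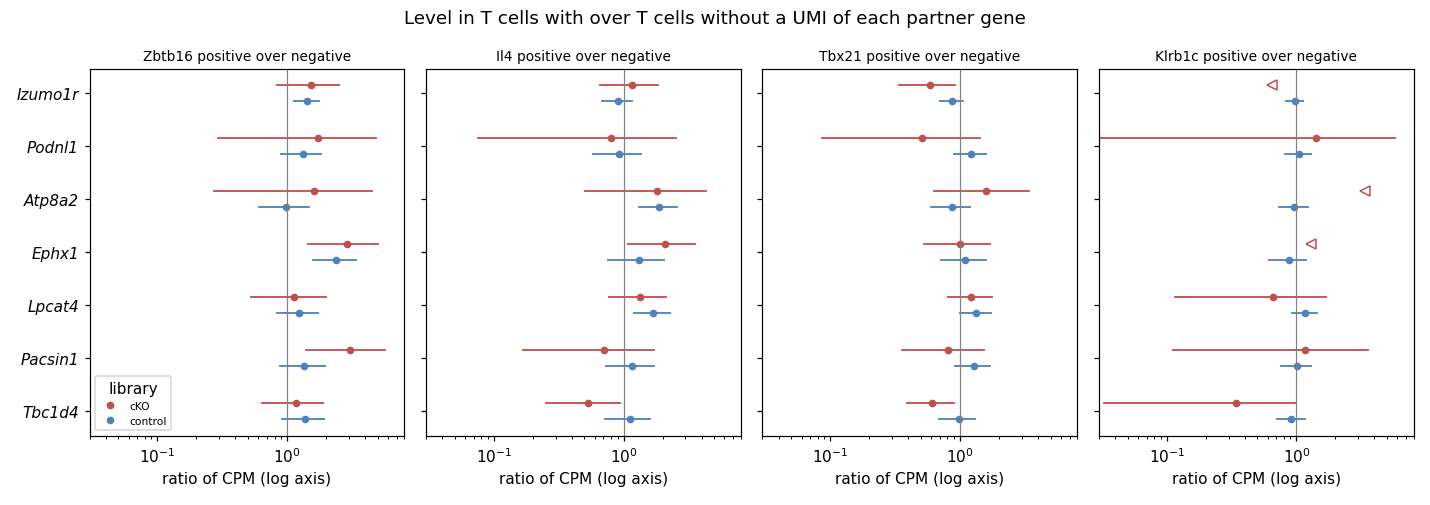
Ratio of each gene's CPM in T cells with over T cells without a UMI of Zbtb16, Il4, Tbx21 or Klrb1c (x axis, log scale), thinned to 1500 UMIs per cell, for the cKO library (upper point of each pair) and the control library (lower point); lines are exact 95% intervals and open triangles mark the upper bound where the positive cells had 0 UMIs. Control ratios with Tbx21 and Klrb1c lie between 0.862 and 1.33, and cKO Izumo1r with Klrb1c lies below 0.648. The interval of cKO Podnl1 with Klrb1c runs past the left edge.

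The level in the cKO library was lower in partner positive and partner negative cells alike for 3 members. Izumo1r had 62.7 CPM in Zbtb16 positive cKO and 237 CPM in Zbtb16 positive control cells, 3.68-fold lower. In Zbtb16 negative cells it had 41.9 CPM in cKO and 167 CPM in control cells, 3.98-fold lower. Podnl1 was 17.8-fold lower in Tbx21 positive cells, on 3 cKO UMIs, and 7.54-fold lower in Tbx21 negative cells, and Atp8a2 4.41-fold lower in Zbtb16 positive and 7.25-fold lower in Zbtb16 negative cells. Izumo1r, Podnl1 and Atp8a2 met the size rule as lower in all 8 of these cell sets, though several calls rest on few cKO UMIs. In the 86 Klrb1c positive cKO cells Izumo1r had 0, Podnl1 1 and Atp8a2 0 UMIs. Podnl1 had 2 UMIs in Il4 positive cKO cells, and Podnl1 and Atp8a2 had 3 each in Zbtb16 positive cKO cells. Of all features, 2.88% did in Zbtb16 positive and 6.29% in Zbtb16 negative cells, 3.99% in Il4 positive and 6.28% in Il4 negative cells, 5.42% in Tbx21 positive and 6.01% in Tbx21 negative cells, and 2.60% in Klrb1c positive and 6.19% in Klrb1c negative cells. Tbc1d4 was lower in the Il4, Tbx21 and Klrb1c positive sets and in none of the 4 negative sets, where its ratio in the thinned cells lay between 0.838 in Klrb1c negative and 0.897 in Tbx21 negative cells. In the Il4 and Klrb1c positive sets Tbc1d4 had 11 and 2 cKO UMIs. Its ratios to the negative cKO cells there turned direction with another random seed.

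As a marker group the 7 genes were loose. Of the 21 pairs, 18 in the control library had an odds ratio of co-detection above 1, but the median was 1.15, from 0.939 for Podnl1 with Pacsin1 to 1.87 for Ephx1 with Lpcat4. In the cKO library 19 of 21 were above 1 with a median of 1.98, from 0 for Atp8a2 with Ephx1 to 3.75 for Izumo1r with Podnl1, on 5 cells with both. The cKO pairs had few cells with both, from 0 for Atp8a2 with Ephx1 to 25 for Izumo1r with Tbc1d4. Odds ratios of other pairs of genes were not set beside these in either library, so how usual values above 1 are is not known. Izumo1r, for example, was found in 13.1% of Tbc1d4 positive and 4.39% of Tbc1d4 negative cKO cells, and in 27.1% of Tbc1d4 positive and 19.2% of Tbc1d4 negative control cells. At least 2 members were found in 101 of 2718 cKO cells, 3.72% (3.04 to 4.50), and in 649 of 4244 control cells, 15.3% (14.2 to 16.4), and no member in 78.6% of cKO and 49.0% of control cells. No cell of either library held 6 or 7 members at that depth, and 5 were found in 0 cKO and 2 control cells.

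**Figure D4:**
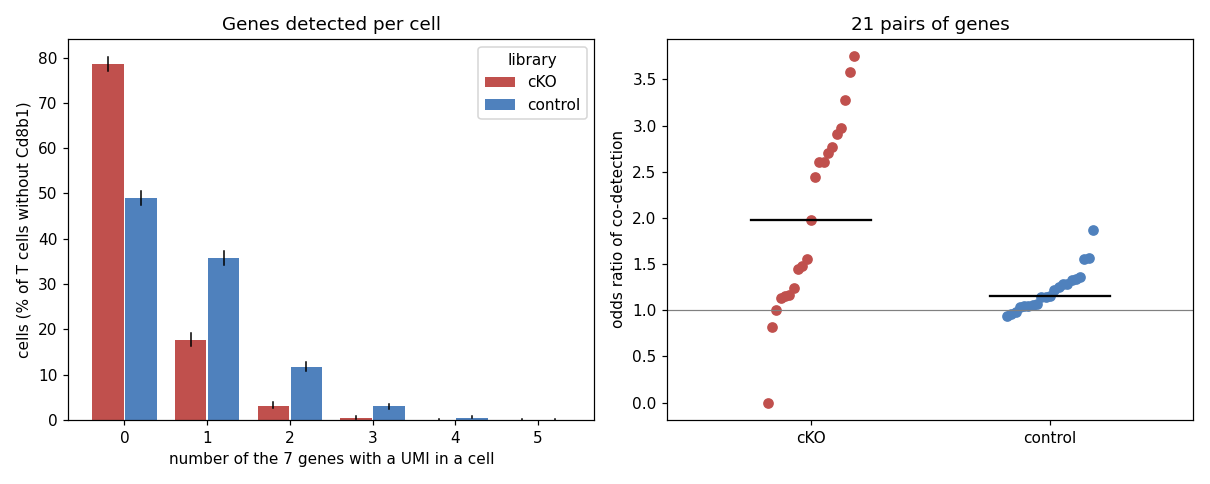
Left, share of T cells without Cd8b1 (y axis, %) by the number of the 7 genes with a UMI after thinning to 1500 UMIs (x axis), cKO bars left of control bars, with exact binomial 95% intervals; right, odds ratio of co-detection for the 21 pairs in each library, with the median as a black line. The median is 1.98 in the cKO and 1.15 in the control library.

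The cells with 2 or more members were compared with the cells with none, within each library. In control cells Tox, a transcription factor gene of developing T cells, stood at 74.0 CPM with 2 or more members and 37.2 CPM with none, a ratio of 1.99 (1.46 to 2.69), Icos, a costimulatory receptor gene, at 255 and 140 CPM, a ratio of 1.82 (1.55 to 2.12), and Zbtb16 at 63.7 and 36.9 CPM, a ratio of 1.73 (1.25 to 2.37), each in that order. Pdcd1lg2, a ligand of PD-1, Ep300, a histone acetyltransferase, and Sh3bp1, a GTPase-activating protein, were also among the 10 highest ratios at 50 CPM or more, with ratios of 2.18, 1.77 and 1.75. The globin genes Hbb-bs, Hbb-bt, Hba-a1 and Hba-a2 made up the rest of these 10 and had the highest ratios, but their UMIs came from 2 cells of 649 and 2 of 2079, with up to 378 and 516 in a single cell. Of all features 2.79% were higher and 2.24% lower in control cells with 2 or more members. Zbtb16 was a leading gene of the control cluster behind the choice of members, so its place here is description only.

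Lower in those control cells were the immunoglobulin genes Jchain, Igha and Igkc, the class II genes Cd74, H2-Eb1, H2-Ab1 and H2-Aa, and the cytotoxic or NK genes Gzma, Ccl4 and Tyrobp. Igkc stood at 66.8 CPM with 2 or more members and 665 CPM with none, and Gzma, a granzyme, at 126 CPM with 2 or more and 517 CPM with none, a ratio of 0.245 (0.202 to 0.294). Of 8 B cell markers 4 were lower and 0 higher, with a summed level of 25.7 CPM with 2 or more members and 120 CPM with none. Cells without a member thus held more transcripts of B and plasma cells, and their part in the ratios was not tested. Klrb1c was at nearly the same level in these control cells, at 164 CPM with 2 or more members and 171 CPM with none, a ratio of 0.962 (0.799 to 1.15).

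In cKO cells most of the listed iNKT1 genes were lower in the same split, but Tbx21 did not meet the rule. Of 12 iNKT1 genes 8 were lower and 0 higher in cells with 2 or more members, against 3.66% of features lower, while in control cells 2 of 12 were lower. In cKO cells Tbx21 had 99.0 CPM with 2 or more members and 152 CPM with none, a ratio of 0.671 (0.361 to 1.08). Ifng, Xcl1 and Cxcr3, with cKO ratios of 1.04, 0.953 and 0.838, did not meet the rule either. Ccl5, a chemokine gene, stood at 112 CPM with 2 or more members and 1202 CPM with none, a ratio of 0.0961 (0.0543 to 0.150), and in control cells at 468 and 1412 CPM in the same order, a ratio of 0.332 (0.301 to 0.365). Gzmb, another granzyme gene, had 304 CPM with 2 or more members and 1259.7 CPM with none in cKO cells. Of 10 iNKT2 genes 3 were higher and 0 lower, against 3.77% of features higher: Zbtb16 at 132 CPM with 2 or more members and 42.4 CPM with none, a ratio of 3.18 (1.84 to 4.99), Icos at 482 and 221 CPM in the same order, and Lef1, a transcription factor gene of naive T cells, at 112 CPM with 2 or more and 51.8 CPM with none. Il4 did not meet the rule, at 79.2 CPM with 2 or more members and 67.4 CPM with none, a ratio of 1.22 (0.598 to 2.09). Cd4 had 66.0 CPM with 2 or more members and 21.8 CPM with none in cKO cells. Of the 10 regulatory and anergic CD4 T cell genes 2 were higher and 0 lower, Nrp1, a coreceptor gene, at 106 CPM with 2 or more and 7.80 CPM with none and Tnfrsf4 at 218 and 28.4 CPM in the same order. Foxp3 itself had 2 UMIs in cells with 2 or more members, and Il2ra had 6.60 CPM with 2 or more and 22.2 CPM with none, neither meeting the rule. Klrb1c had 0 UMIs in the 101 cKO cells with 2 or more members, which allows up to 19.8 CPM, and 25.9 CPM in those with none. Set beside 164 CPM in the control cells with 2 or more members, this is at least 8.30-fold lower in the cKO library against the floor of 3 counts, and the wider exact interval of the ratio reached 0.15. Klrb1c was also lower in cKO cells with no member, at 25.9 CPM in cKO and 171 CPM in control cells, 6.58-fold (5.24 to 8.43). The low level was thus not particular to cells with members. Gut genes summed to 59.4 CPM with 2 or more members and 129.5 CPM with none in cKO cells, and their part was not tested. The 9 myeloid or dendritic cell markers summed to 158 and 381 CPM in the same order, nearly all of it Cst3, at 152 and 275 CPM, and Itgax, at 6.60 and 92.4 CPM, while Lyz2, Csf1r and Cd68 were at 0 UMIs with 2 or more members and at most 5.31 CPM with none.

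Ets1 itself stood higher in cells with 2 or more members, meeting the size rule in the cKO library only. In the cKO library it stood at 290 CPM in cells with 2 or more members and 174 CPM in cells with none, a ratio of 1.68 (1.196 to 2.26), and in the control library at 641 CPM with 2 or more and 517 CPM with none, a ratio of 1.24 (1.13 to 1.36). By member, Ets1 had 314 CPM in Izumo1r positive and 179 CPM in Izumo1r negative cKO cells, a ratio of 1.76 (1.33 to 2.26), and 296 CPM in Pacsin1 positive and 184 CPM in Pacsin1 negative cKO cells, a ratio of 1.64 (1.07 to 2.35). For the other 5 members the interval of the cKO ratio included 1. In control cells the interval excluded 1 for Tbc1d4, with a ratio of 1.22 (1.10 to 1.36), and for Izumo1r, with 1.09 (1.004 to 1.18). It included 1 for the rest, among them Pacsin1, with 1.08 (0.953 to 1.21). Ets1 was nonetheless lower in the cKO library in both sets, 2.18-fold (1.62 to 3.07) in cells with 2 or more members and 2.96-fold (2.69 to 3.27) in cells with none.

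**Figure D5:**
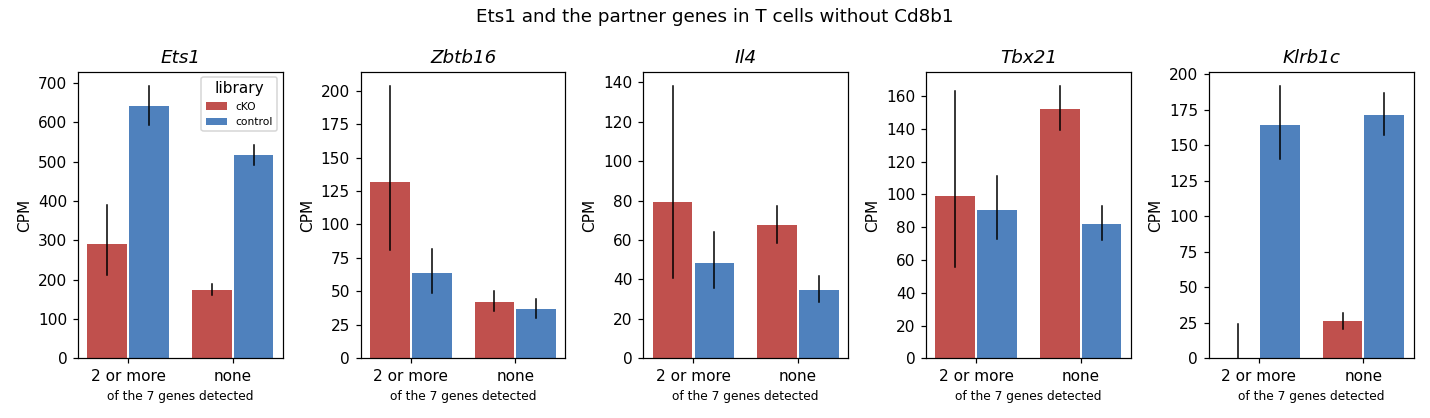
CPM (y axis, from 0) of Ets1, Zbtb16, Il4, Tbx21 and Klrb1c in T cells without Cd8b1 with 2 or more of the 7 genes detected and with none, thinned to 1500 UMIs, cKO bars left of control bars; lines are exact Poisson 95% intervals. Klrb1c is at 0 in cKO cells with 2 or more of the genes and at 164 CPM in such control cells. With none of the genes it is at 25.9 CPM in cKO and 171 CPM in control cells.

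Relatives of the members were read by the same rule. Of 21 related genes in the files, such as other flippases, acyltransferases and PACSIN proteins, 11 reached 10 CPM in T cells, of which 1 was higher and 1 lower in the cKO library, with 14.3% of all features higher and 5.26% lower. Atp8a1, the closest relative of Atp8a2, had 65.1 CPM in cKO and 29.3 CPM in control T cells, a ratio of 2.22 (2.05 to 2.41), opposite to Atp8a2. Lpcat1, another acyltransferase, had 7.60 CPM in cKO and 13.2 CPM in control T cells, 1.73-fold lower (1.46 to 2.06), the same direction as Lpcat4. Tbc1d1, the closest relative of Tbc1d4, had 54.4 CPM in cKO and 70.9 CPM in control T cells, and Pacsin2 27.4 CPM in cKO and 23.3 CPM in control T cells, neither meeting the rule. The folate receptor genes Folr1 and Folr2, relatives of Izumo1r, had 0 UMIs in T cells of both libraries.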

How the data were processed

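Single-cell UMI counts of sorted thymus cells were used, 1 library per genotype and 2 mice per library, per the labels. The deposited matrices are whole UMI counts per gene and barcode, not normalized by the authors. Per the submitters' processing notes Cell Ranger 2.1.1 and mm10 were used, while the matrix headers name version 3.0.0, a difference not resolved here. Coordinates come from GENCODE vM21, which held 99.6% of the identifiers.

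A T cell had at least 2 UMIs of Cd3d, Cd3e and Cd3g, a B cell at least 2 of Cd79a and none of CD3, and an NK cell at least 1 of Ncr1 and none of CD3. Cells with over 1% gut UMIs were left out of the T, B and NK gates. No doublet caller was run, and an alternative left out the 5% of cells with the most UMIs. Ratios of summed counts carry exact conditional binomial intervals (0.5 UMIs enter each sum in the point value), levels exact Poisson intervals, and shares Clopper-Pearson ones. A sum of 0 was set against 3 counts. Co-detection used cells thinned to 1500 UMIs. The members and lists were chosen with earlier results of these data known. Named genes were the members, the partners, Ets1, up to 4 genes with large ratios per list, and, between control cells with 2 or more members and with none, the 10 highest and 10 lowest ratios at 50 CPM or more. Tnfrsf4, Gzmb, Cd4, Nrp1, Tbc1d1 and Pacsin2 were picked after their values were seen. The size rule was tested on simulated data. Versions were numpy 2.4.6, Python 3.11.15, pandas 2.3.3, matplotlib 3.10.9 and scipy 1.17.1.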

Additional observations from a re-analysis of the deposited data

Results flagged for a closer look

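Tbc1d4 was set apart because its difference between the libraries had opposite directions in T cell classes. Its log2 ratio, cKO over control, was 0.32 in CD4 T cells, a ratio of 1.25 (1.07 to 1.46), while in T cells with neither Cd4 nor Cd8b1 it was -0.86 and in CD8 T cells -0.67, the last short of the rule after thinning, at -0.46. The difference between these classes was not tested, since there was 1 library per genotype. The classes are sets by detected transcript, and cells whose Cd4 was missed fall among those with neither.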

How the results depend on the processing

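No paired analysis was possible because there was 1 library per genotype. Members lower in cKO cells numbered between 4 and 7 of 7 in T cells, 4 and 5 in CD4 T cells, and 4 and 6 in CD8 T cells over the alternatives tried, and in T cells all 98 log2 ratios under them were below 0. For NK cells the count of 1 became 2 in cells of at least 3000 UMIs, 0 after thinning and 3 with every cell weighted equally, where Podnl1, on 2 cKO and 7 control UMIs, turned from a log2 ratio of -1.19 to a ratio of 3.03 and met the rule as higher, and the alternative CD3 gate was not applied to NK cells. Keeping cells with no UMI of Cd79a, Lyz2 or the gut genes was chosen after seeing the data. Shares of all features under the alternatives are not given beside any of these counts.

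Counts by partner moved with thinning. No shares of all features are set beside the counts under these alternatives. With Zbtb16, the 1 member higher in control cells became 0 at 1000 UMIs, 2 at 2500 UMIs, 2 with another seed and 3 without thinning, and the 2 in cKO cells became 1 at 1000 UMIs and 6 without thinning. With Il4, the 2 in control cells became 0 at 1000 UMIs, 1 at 2500 UMIs and 0 without thinning, and the 1 in cKO cells became 0 with another seed and 2 without thinning. With Tbx21, the 0 in cKO cells became 1 without thinning. In cKO cells 5 log2 ratios turned direction: Tbc1d4 with Il4 was 0.17 at 1000 UMIs and 0.20 with another seed, Ephx1 with Il4 -0.36 at 2500 UMIs and -0.16 with another seed, and Tbc1d4 with Klrb1c 0.36 with another seed. In NK cells a count of 0 allows up to 7.24 CPM in the cKO and 5.49 CPM in the control library, so lower levels were not detectable at this depth.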
